A study of Mus musculus with 4 samples.

Results

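Interleukin-1, interleukin-6 and tumor necrosis factor are cytokines, secreted proteins through which cells of injured tissue signal to one another. The 9 genes described here were chosen by name: Il1a and Il1b (the interleukin-1 ligands), Il1rn (the interleukin-1 receptor antagonist), Il1r1 (the interleukin-1 receptor), Il6, Il11 and Lif (cytokines that signal through gp130), Tnf (tumor necrosis factor) and Il4ra (a receptor chain for interleukin-4 and interleukin-13). Of these 9 genes, 8 were matched by RefSeq accession to a probe, through 10 of the 41174 probes and 37 spots on each array. No probe was matched to Lif, which is named only. Il1b, Il6 and Tnf were each printed as 10 spots of 1 probe, and Il1a and Il1rn had 2 probes each. In each of the 5 comparisons made, 7 of the 9 genes were measured. The exceptions were Lif and Il1a, whose signal was not well above background on both arrays of any tissue.

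Interleukin-1 binds its receptor Il1r1 with an accessory chain and acts through Myd88 and NF-kappaB, and the antagonist encoded by Il1rn occupies the receptor without signaling. Tumor necrosis factor also activates NF-kappaB through its own receptors, and members of the interleukin-6 family act through gp130, Janus kinases and Stat3. In the brain, microglia, astrocytes, endothelial cells and invading leukocytes are known sources of these cytokines after ischemia.

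The tissues were ischemic core, ischemic penumbra, healthy core and healthy penumbra from the brains of male C57BL/6J mice aged 9 weeks. They were taken 6 h after permanent middle cerebral artery occlusion with an intraluminal filament, and the labels of all 4 tissues name saline, which was given into the cerebral ventricle as the control injection. The labels give 3 mice per group, without saying if their RNA was pooled or which hemisphere or animals supplied the healthy pieces. RNA was hybridised to 4 two-color Agilent arrays of 1 slide, each setting an ischemic piece against its healthy counterpart. Core replicate 1 and penumbra replicate 3 had ischemic RNA in Cy5, and core replicate 2 and penumbra replicate 4 had it in Cy3. Separate extracts are not documented for the arrays of a region, so a dye-swapped pair was treated as 1 replicate. Errors are the SD between the 2 arrays of a pair and not a spread between animals.

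A gene was called by size, without a p-value, where the mean of the pair was at least 2-fold and each array at least 1.5-fold in the same direction. Per array and dye, 76.1% to 79.4% of spots stood well above background, and 0 were saturated. The main log2 ratios carry an added offset of 50 intensity units, which shrinks the ratios of dim probes. Agilent's processed signals carry no such offset, and for the members they are printed beside the main value where they change a call. All ratios are relative to the bulk of genes. Scaling to 10 spike-in control probes lowered core ratios by 0.47 log2 and penumbra ratios by 0.46. In bulk tissue, fewer cells of a type and less RNA per cell cannot be told apart.

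The promoters of Il1b, Il6 and Tnf are shown because these 3 ligands had 10 spots each and carry most of what follows. All 9 genes matched RefSeq promoter windows of assembly GRCm38.p6, 13 windows in all, each of 300 bases with 250 before the gene's start and 50 from it. Capitals mark a match to the NF-kappaB motif or to TATAAA, the letters of a TATA box. The windows lie at chr2:129371090-129371389 on the minus strand for Il1b, chr5:30012864-30013163 on the plus strand for Il6 and chr17:35201958-35202257 on the minus strand for Tnf.
Il1b: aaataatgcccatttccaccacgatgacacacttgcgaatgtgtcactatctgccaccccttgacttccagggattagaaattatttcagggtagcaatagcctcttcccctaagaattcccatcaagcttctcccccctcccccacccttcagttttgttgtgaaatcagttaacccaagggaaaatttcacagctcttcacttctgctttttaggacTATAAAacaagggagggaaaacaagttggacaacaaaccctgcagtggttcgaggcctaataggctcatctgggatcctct
Il6: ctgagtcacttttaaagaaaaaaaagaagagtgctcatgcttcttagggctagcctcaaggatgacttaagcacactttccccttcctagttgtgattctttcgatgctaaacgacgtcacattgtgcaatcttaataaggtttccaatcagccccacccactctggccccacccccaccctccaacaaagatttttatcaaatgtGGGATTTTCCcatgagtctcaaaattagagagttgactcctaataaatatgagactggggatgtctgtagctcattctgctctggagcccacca
Tnf: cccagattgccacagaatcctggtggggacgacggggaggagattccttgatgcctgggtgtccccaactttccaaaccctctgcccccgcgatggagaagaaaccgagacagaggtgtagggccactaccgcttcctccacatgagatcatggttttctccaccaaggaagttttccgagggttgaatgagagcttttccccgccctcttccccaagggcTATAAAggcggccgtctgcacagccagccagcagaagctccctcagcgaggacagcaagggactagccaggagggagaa
Both strands of each window were searched. The Il6 window held the NF-kappaB motif at position -44 from the gene's start and the AP-1 motif TGANTCA at position -249. The Il1b window held TATAAA at position -31 and the Tnf window held it at position -29, and neither held an NF-kappaB match. Over the 9 genes, 3 had an NF-kappaB match in a window (Il6, Il1r1 and Il4ra) and 5 had an AP-1 match. The letters TATAAA were found for 4 (Il1a, Il1b, Tnf and Il1rn), and the cyclic AMP response element TGACGTCA for 0. For Il1rn the TATAAA match lay on the opposite strand at position 15, after the gene's start, and is not read as a TATA box. Among 32851 RefSeq mouse promoters of the same length, 4.51% held the NF-kappaB motif and 7.81% the AP-1 motif. The letters TATAAA, on either strand and anywhere in the window, were found in 13.6% of them and the response element in 1.79%. These shares count promoters, whereas the counts over the 9 genes take a match in any window of a gene. Some genes had more windows than others, so the counts and the shares are not compared. A match is a description of the sequence, and no match says only that these letters are not in this window.

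Il1b was above 0 in ischemic over healthy tissue on all 4 arrays, and it was the member called in the core. Its mean log2 ratio of ischemic over healthy core was 1.02 ± 0.01 (SD between 2 arrays), a 2.03-fold rise. In the penumbra the ratio was 0.52 ± 0.02, or 1.43-fold, which did not reach the 2-fold rule and was 0.06 under spike-in scaling. The core ratio of Il6 was 0.81 ± 0.04, or 1.75-fold, and 0.34 under spike-in scaling. Il1rn, Tnf and Il11 lay between 0.38 and 0.44 in the core. On processed signals the core ratios stood in another order, with Il1rn at 2.62, Il6 at 2.48, and Il1b and Tnf at 1.84 each. In healthy core Il1rn and Tnf were well above background on 0 of 2 arrays and Il6 on 1, so no order of the members is read from either scale. In the core 6 of the 7 measured members (all but Il1r1) were above 0 on both arrays, against 26.9% of all features. In the penumbra Il1b alone of the 7 was above 0 on both arrays, against 30.3% of features, and the other 6 were below 0 on both, against 32.4%. Il1rn, Tnf and Il6 passed the background filter of the core comparison through ischemic core alone. Il1rn passed that of the penumbra through healthy penumbra alone. For these the filter itself favored the sign seen, so the counts beside the shares of all features are a description only.

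**Figure D1:**
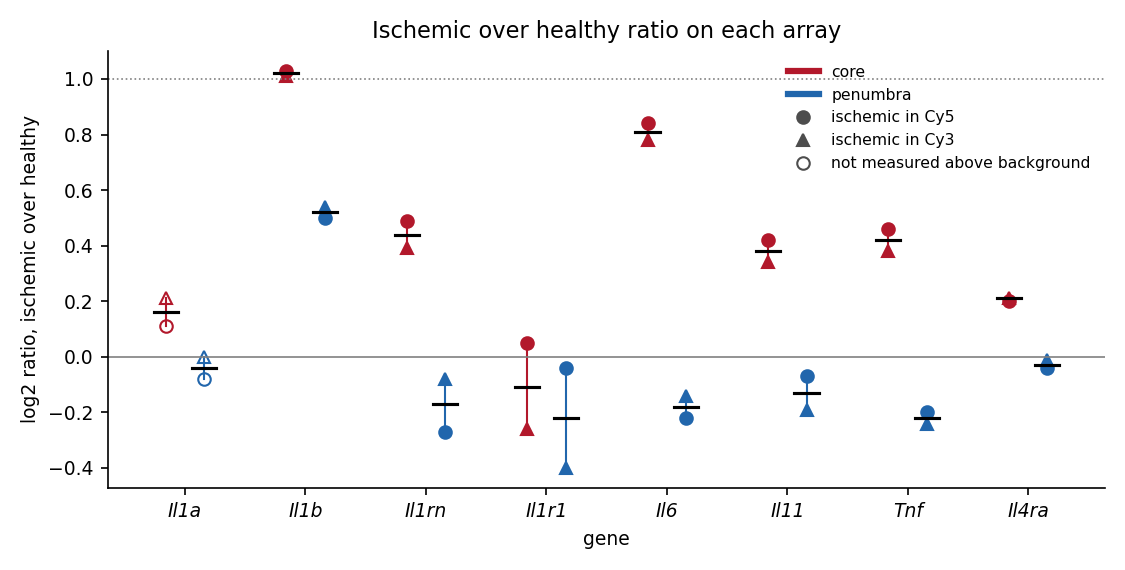
Log2 ratio of ischemic over healthy tissue for each measured gene, with 1 point per array, core beside penumbra. Il1b lies above 0 on all 4 arrays, while Il1rn, Il6, Tnf, Il11 and Il4ra lie above 0 on both core arrays and below 0 on both penumbra arrays. With spike-in scaling, the core means of Il1rn, Tnf, Il11 and Il4ra lie below 0.

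The background for these calls was low. Of 24533 features measured in the core, 76 were called higher (0.310%) and 0 lower. Of 24925 in the penumbra, 60 were called higher (0.241%) and 1 lower (0.00401%). Of the 7 measured members, 1 was called in the core and 0 in the penumbra. Their median was 0.42 in the core, against -0.01 over all features, and -0.17 in the penumbra, against -0.01 over all features. The background filter favored the sign of Il1rn, Tnf and Il6 in the core and of Il1rn in the penumbra. The medians and counts are therefore a description only. On processed signals the core had 0.938% of features called higher and 0.0611% lower, and 4 members were called higher: Il1b, Il1rn, Il6 and Tnf. All but Il1b rest on a healthy core that was not well above background on 1 or both arrays. The penumbra had 0.758% called higher and 0.120% lower on these signals, and 1 member was called lower, Il1rn, whose ischemic penumbra was not well above background.

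Il1b encodes the interleukin-1 ligand that is made as a precursor and cleaved by caspase-1. Its processed signal (NM_008361) was 133 and 135 in ischemic core, against 35.8 and 39.5 in healthy core. It was 96.5 and 129 in ischemic penumbra, against 54.1 and 65.7 in healthy penumbra. The groups did not overlap in either region, and healthy core was the lowest of the 4 tissues. The log2 ratio was 1.03 and 1.01 on the core arrays and 0.50 and 0.54 on the penumbra arrays. It ranked 72 of 24533 in the core, so the value stood just inside the 2-fold limit, and spike-in scaling brought it to 0.55 and ended the call. In the penumbra that scaling brought it to 0.06. On processed signals the ratio was 1.84 ± 0.09 in the core, or 3.58-fold, and 0.90 ± 0.10 in the penumbra, or 1.87-fold. The error in limma over arrays is the spread between arrays, drawn toward a value shared over all genes. It is no spread between animals. For Il1b its standard error was 0.07 in each region, where the SD between arrays was 0.01 in the core and 0.02 in the penumbra. In limma over arrays the Benjamini-Hochberg adjusted p of Il1b was 0.00441 in the core and 0.0322 in the penumbra. With a dye coefficient, limma gave an adjusted p of 2.14e-08 in the core and 6.54e-06 in the penumbra.

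Within an array, the 10 spots of Il1b show the measurement error of a single hybridisation. They ran between 0.90 and 1.13 on core replicate 1 and between 0.94 and 1.14 over 9 kept spots on core replicate 2. On the penumbra arrays they ran between 0.38 and 0.68 on replicate 3 and between 0.33 and 0.66 over 8 kept spots on replicate 4. No core spot overlapped a penumbra spot. Spots share a hybridisation and are no replicates of a condition.

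Il1a encodes interleukin-1 alpha, which is active without cleavage. Its brighter probe (NM_010554) gave processed signals of 8.38 and 11.1 in ischemic core, against 6.25 and 3.81 in healthy core, and 9.79 and 8.50 in ischemic penumbra, against 11.6 and 10.4 in healthy penumbra. Of these 8 values only 1, in healthy penumbra, was well above background, so no fold is given for Il1a. Its second probe was not well above background in any tissue.

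Il1rn was dim but well above background in ischemic core and in healthy penumbra. The processed signal of its brighter probe (NM_001039701) was 19.0 and 15.9 in ischemic core, against 2.77 and 2.88 in healthy core. It was 7.20 and 12.6 in ischemic penumbra, against 27.1 and 25.1 in healthy penumbra. The groups did not overlap in either region, and they stood in opposite order. Healthy core and ischemic penumbra were not well above background. Folds written as at least use normalized levels, with the dim side raised to the lowest signal well above background. They make no allowance for the spread between arrays. Il1rn was at least 1.22-fold higher in ischemic than in healthy core. In ischemic penumbra its own signal lay above that lowest signal. The 1.13-fold lower level than in healthy penumbra is therefore a measured value and no bound, with array ratios of -0.27 and -0.08. The measured log2 ratios were 0.44 ± 0.07 in the core, which spike-in scaling turned to -0.03, and -0.17 ± 0.14 in the penumbra. On processed signals they were 2.62 ± 0.22 and -1.45 ± 0.65, which met the size rule upwards in the core and downwards in the penumbra, each against a dim side that was not well above background. The mean over both probes gave a core ratio of 0.28 and a penumbra ratio of -0.07. The second Il1rn probe was not well above background in any tissue and had ratios of 0.12 ± 0.08 in the core and 0.03 ± 0.18 in the penumbra.

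Il1r1 encodes the signaling receptor of both interleukin-1 ligands and was bright in every tissue. Its processed signal (NM_008362) was 986 and 963 in ischemic core, against 955 and 1200 in healthy core, and 626 and 629 in ischemic penumbra, against 658 and 870 in healthy penumbra. The ischemic and healthy core groups overlapped. The log2 ratio was -0.11 ± 0.22 in the core, with 0.05 on replicate 1 and -0.26 on replicate 2. It was -0.22 ± 0.25 in the penumbra. Both SDs exceeded the values, and they hold any dye effect, which cancels in the mean of a swapped pair. Spike-in scaling put Il1r1 at -0.58 in the core and -0.68 in the penumbra. In limma over arrays the adjusted p was 0.777 in the core and 0.362 in the penumbra. With a dye coefficient it was 0.102 in the core and 0.00259 in the penumbra.

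**Figure D2:**
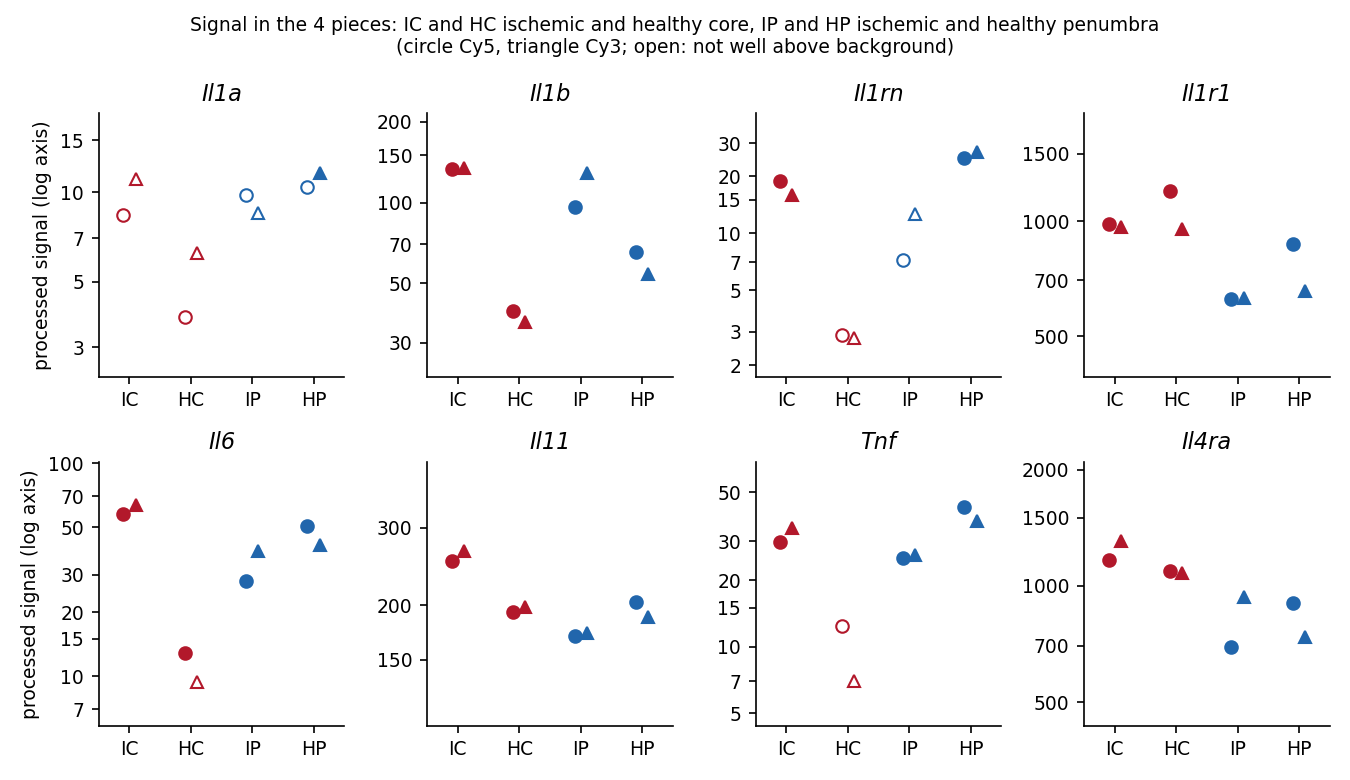
Agilent processed signal of each gene (log axis) in ischemic core (IC), healthy core (HC), ischemic penumbra (IP) and healthy penumbra (HP), with circles for Cy5, triangles for Cy3 and open marks where the probe was not well above background. Il6, Tnf and Il1rn are lowest in healthy core, while Il1r1 and Il4ra are lower in both penumbra pieces than in both core pieces.

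Il6 encodes interleukin-6, an inducer of the acute phase response. Its processed signal (NM_031168) was 57.6 and 63.6 in ischemic core, against 9.38 and 12.9 in healthy core. It was 28.1 and 38.8 in ischemic penumbra, against 41.2 and 50.6 in healthy penumbra. Ischemic core was above every other tissue, and healthy core was below every other. In healthy core only 1 of 10 spots in Cy3 and 7 of 10 in Cy5 were well above background, so that piece was measured on 1 of its 2 arrays. The log2 ratio was 0.84 and 0.78 on the core arrays, ranking 129 of 24533, and -0.22 and -0.14 on the penumbra arrays. The processed signals gave 2.48 ± 0.29 in the core, a measured 5.56-fold that met the size rule with 1 healthy core array not well above background, and -0.46 ± 0.12 in the penumbra. In limma over arrays the adjusted p was 0.0109 in the core, and 2.2e-07 with a dye coefficient. In the penumbra, where the ratio was smaller and below 0, it was 0.228, and 0.00993 with a dye coefficient.

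The spots of Il6 kept these directions within arrays. They ran between 0.68 and 1.00 on core replicate 1 and between 0.34 and 0.93 on core replicate 2. On penumbra replicate 3 all 10 lay below 0, between -0.42 and -0.07. On penumbra replicate 4, 8 of 9 lay below 0, between -0.30 and 0.08.

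Il11, another gp130 cytokine, had processed signals (NM_008350) of 252 and 265 in ischemic core, against 198 and 193 in healthy core. It had 170 and 173 in ischemic penumbra, against 188 and 203 in healthy penumbra. The groups did not overlap in either region. The log2 ratio was 0.38 ± 0.05 in the core, or 1.30-fold, which spike-in scaling turned to -0.09, and -0.13 ± 0.09 in the penumbra. Neither met the 2-fold rule.

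Tnf encodes tumor necrosis factor. Its processed signal (NM_013693) was 29.8 and 34.6 in ischemic core, against 7.04 and 12.4 in healthy core. It was 25.2 and 26.0 in ischemic penumbra, against 37.2 and 43.0 in healthy penumbra. The groups did not overlap, and the order of the core was the opposite of that of the penumbra. Tnf was not well above background in healthy core, where 1 of 10 spots in Cy3 and 4 of 9 in Cy5 passed. The 1.34-fold higher level in ischemic core is therefore a measured value, and no bound is given. The measured log2 ratios were 0.42 ± 0.05 in the core, which spike-in scaling turned to -0.05, and -0.22 ± 0.02 in the penumbra. On processed signals they were 1.84 ± 0.48, which met the size rule against a healthy core not well above background, and -0.65 ± 0.11. In limma over arrays the adjusted p was 0.0598 in the core (4.14e-05 with a dye coefficient) and 0.164 in the penumbra (0.0026 with that coefficient).

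**Figure D3:**
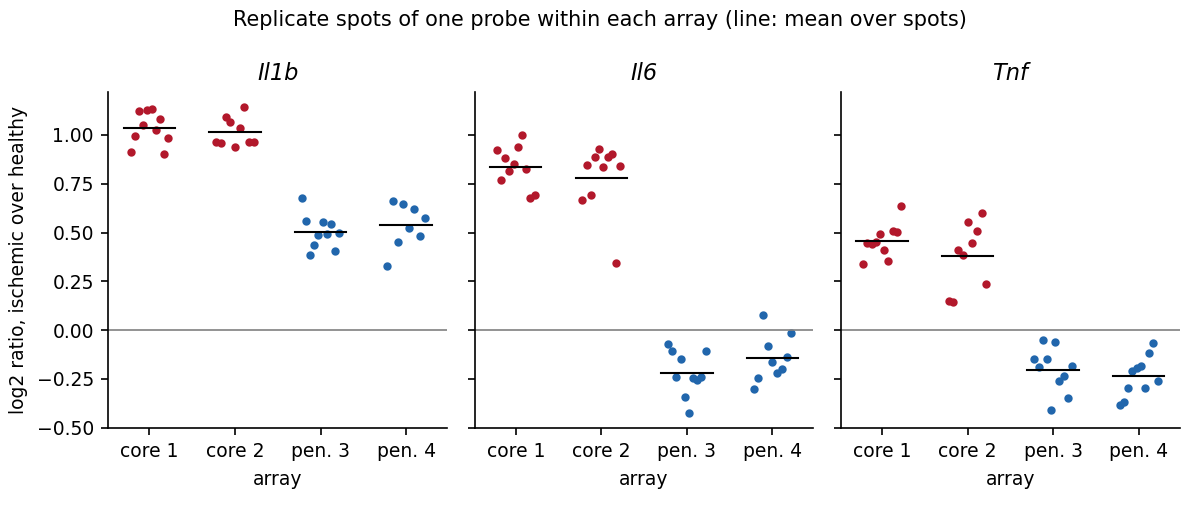
Log2 ratio of ischemic over healthy tissue for the single spots of Il1b, Il6 and Tnf on each of the 4 arrays. The Il1b spots lie above 0 on every array, and the Il6 and Tnf spots lie above 0 on the core arrays and, but for 1 Il6 spot, below 0 on the penumbra arrays.

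Il4ra had processed signals (NM_001008700) of 1170 and 1310 in ischemic core, against 1080 and 1090 in healthy core, and 695 and 935 in ischemic penumbra, against 736 and 903 in healthy penumbra. The core groups did not overlap and the penumbra groups did. Its log2 ratio was 0.21 ± 0.01 in the core, which spike-in scaling turned to -0.27, and -0.03 ± 0.02 in the penumbra.

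Core and penumbra arrays differed in the same direction for 6 of the 7 measured members. Both core arrays lay above both penumbra arrays for Il1b, Il1rn, Il6, Tnf, Il11 and Il4ra, a pattern found in 15.7% of all features. For 5 of them (all but Il1b) both core arrays were above 0 and both penumbra arrays below 0, against 2.78% of all features. Il1rn passed the background filter only through ischemic core and healthy penumbra, the tissues where it was high, so the filter favored this pattern for it. These counts are a description only. The core ratio minus the penumbra ratio was 0.99 log2 for Il6, rank 11 of 25259 and just under the limit of 1. It was 0.64 for Tnf, 0.61 for Il1rn, 0.51 for Il11, 0.50 for Il1b, 0.24 for Il4ra and 0.11 for Il1r1. For Il1rn the mean over both probes gave 0.35. The median over the 7 members was 0.51, against 0.01 over all features, also a description only.

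Of all features, 0.0396% were called higher in the core than in the penumbra by this difference and 0.0198% lower, and 0 of the 7 members were called. Leaving out core replicate 2 gave Il6 a difference of 1.02 and leaving out penumbra replicate 4 gave 1.03, and either made it a call. On processed signals, where 0.368% of features were called higher and 0.340% lower, the difference was 4.08 for Il1rn, 2.94 for Il6 and 2.49 for Tnf, and all 3 met the size rule. Each of these rests on healthy core, where Il1rn and Tnf were well above background on 0 of 2 arrays and Il6 on 1, and Il1rn rests on ischemic penumbra as well, so the sizes are measured values only. In limma over arrays the adjusted p of the Il6 difference was 0.202, and 1.03e-05 with a dye coefficient. For Tnf it was 0.378, and 0.000164 with that coefficient.

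The pieces themselves were compared within each dye, healthy with healthy and ischemic with ischemic, and these differences are between single-channel log2 levels. In healthy tissue for 4 members the core piece lay below the penumbra piece in both dyes, against 32.1% of all features. Of these, Il1rn, Il6 and Tnf passed the background filter through healthy penumbra alone, which favored this sign. The difference was -0.54 ± 0.10 for Il1rn, -0.54 ± 0.08 for Il6, -0.47 ± 0.01 for Tnf and -0.20 ± 0.06 for Il1b (SD between 2 dyes). The mean over both Il1rn probes was -0.28. Il1r1 at 0.54 ± 0.00 and Il4ra at 0.37 ± 0.05 were above 0 in both dyes, against 40.9% of features, and Il11 stood at 0.01 ± 0.03. By size, 0.313% of features were called higher, 0.819% were called lower, and 0 of the 7 members were called. On processed signals, where 2.16% of features were called lower and 1.24% higher, the measured differences of Il1rn at -3.06, Tnf at -1.91 and Il6 at -1.86 met the size rule, with healthy core as dim as described above. On normalized levels, healthy core was at least 1.30-fold lower than healthy penumbra for Il1rn. For Tnf it was a measured 1.39-fold lower, which is no bound.

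In ischemic tissue the difference between pieces was above 0 in both dyes for all 7 measured members (Il1rn 0.00 after rounding in Cy3), against 41.4% of all features. It was 0.66 ± 0.03 for Il1r1, 0.61 ± 0.07 for Il4ra, 0.52 ± 0.06 for Il11, 0.45 ± 0.17 for Il6, 0.30 ± 0.10 for Il1b, 0.17 ± 0.02 for Tnf and 0.08 ± 0.11 for Il1rn. By size, 0.442% of features were called higher, 0.912% were called lower, and 0 of the 7 members were called. On processed signals, where 1.65% were called higher and 2.52% lower, Il1rn at 1.15 and Il6 at 1.03 were called. Il1rn passed the background filter here through ischemic core alone, as ischemic penumbra was not well above background on either array. On normalized levels it was a measured 1.06-fold higher in ischemic core than in ischemic penumbra, at 0.16 in Cy5 and 0.00 in Cy3. No bound is given for it. The median of the members was 0.45, against 0.02 over all features, and it was -0.20 in healthy tissue, against 0.01. Because the filter favored the sign of some members, both medians are a description only.

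**Figure D4:**
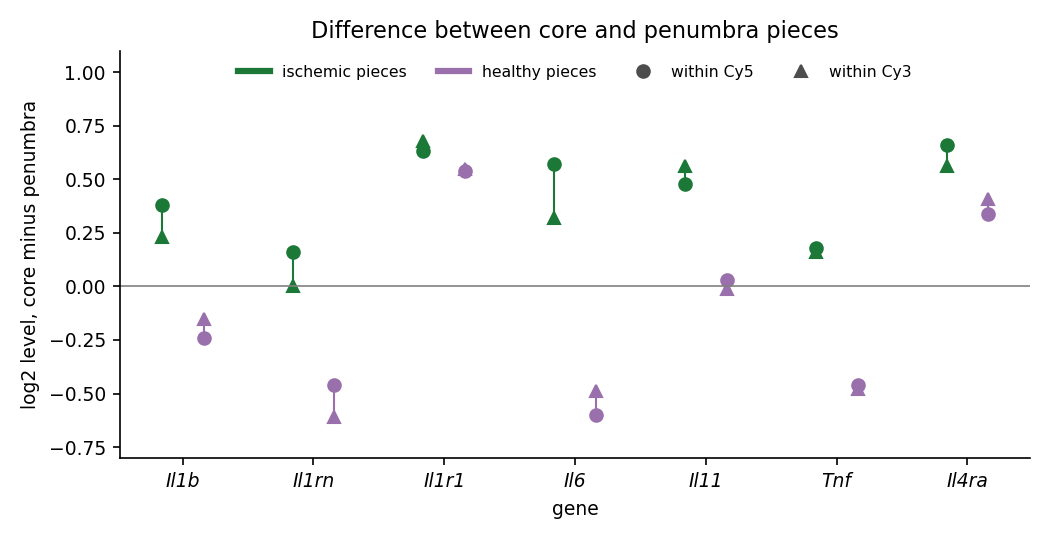
Difference of core and penumbra pieces in single-channel log2 level for each member, in ischemic tissue (green) and in healthy tissue (purple), with circles for Cy5 and triangles for Cy3. Il6, Tnf, Il1rn and Il1b lie above or at 0 in ischemic tissue and below 0 in healthy tissue, while Il1r1 and Il4ra lie above 0 in both.

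The dissected pieces differed in tissue makeup, and the part of this in the member values was not tested. The summed processed signal of 8 choroid plexus markers was 1028 and 1057 in ischemic core, against 31940 and 40250 in ischemic penumbra, and 1021 to 1126 in healthy core, against 19920 to 25100 in healthy penumbra. All 8 were called lower in core than in penumbra pieces, in ischemic and in healthy tissue. Between healthy pieces, 7 of 8 striatal neuron markers were called lower in core (median -1.88) and 2 of 8 cortical neuron markers were called higher (median 0.41). In ischemic over healthy penumbra, choroid plexus markers had a median of 0.68 and meningeal markers 0.46, with 0 called in either list. In the core those medians were 0.02 and -0.12.

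Some neutrophil markers were higher with ischemia in both regions, and the part of leukocytes in the member values was not tested either. Of 8 measured neutrophil markers, 3 (S100a8, S100a9 and Retnlg) were called higher in each region, against 0.310% of all features in the core and 0.241% in the penumbra. List medians were 0.76 in the core and 0.42 in the penumbra. Processed signals called 5 in each region (0.938% and 0.758% of features), with medians of 2.46 in the core and 1.5 in the penumbra. Cxcr2 and Ngp were not well above background in either healthy piece, so the filter favored their sign. Ngp was among these core calls and Cxcr2 among these penumbra calls. Their summed processed signal was 10640 to 12480 in ischemic core, against 2065 to 2239 in healthy core, and 8107 to 12320 in ischemic penumbra, against 2495 to 3133 in healthy penumbra. Of the monocyte and macrophage markers 1 of 8 was called in the core (Cd14, 1.53) and 0 of 7 in the penumbra, and the list medians were 0.06 and 0.13. Mrc1, Cd163, Lyve1 and F13a1 of that list stood between -0.12 and -0.02 in the core. Its sums were 8937 to 9467 in ischemic core, against 5480 to 5839 in healthy core, and 6999 to 8707 in ischemic penumbra, against 5425 to 6264 in healthy penumbra. Of 10 microglial markers, 0 were called in either region, with medians of 0.06 and 0.12. Their sums overlapped between ischemic and healthy tissue in both regions, at 31410 to 32190 against 29540 to 33250 in the core and 33810 to 38660 against 29940 to 38530 in the penumbra.

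Genes known to be induced by interleukin-1, interleukin-6 and tumor necrosis factor were the pathway list with most calls. Of 23 measured targets, 5 were called higher in the core and 0 lower, with a median of 0.53, and 1 was called in the penumbra, with a median of 0.14. The chemokine Cxcl1, which attracts neutrophils, rose by a log2 ratio of 1.67 ± 0.04 in the core and stood at -0.26 ± 0.09 in the penumbra. The chemokine Ccl2, which attracts monocytes, rose by 1.67 ± 0.21 in the core and stood at -0.02 ± 0.21 in the penumbra. Both were called for the difference between regions, at 1.93 and 1.69 (2.57 and 1.89 on processed signals), and both were called lower in healthy core than in healthy penumbra, at -1.50 and -1.41. Nfkbiz, which encodes a nuclear inhibitor-like regulator of NF-kappaB, rose by 1.36 ± 0.08 in the core and stood at 0.64 ± 0.01 in the penumbra. Hp, which encodes the acute phase protein haptoglobin, rose by 1.25 ± 0.07 in the core and stood at 0.80 ± 0.18 in the penumbra. Processed signals gave Hp 1.81 in the core and 1.23 in the penumbra, both called. Over the list they called 7 higher in the core and 2 in the penumbra, against 0.938% and 0.758% of all features. Of the core calls, Cxcl2 was not well above background in healthy core, so the filter favored its sign. Ptgs2, which encodes the inducible cyclooxygenase, rose in both regions, by 1.12 ± 0.03 in the core and 1.44 ± 0.03 in the penumbra. Spike-in scaling left Cxcl1 and Ccl2 called in the core, at 1.20 each. It ended the core calls of Nfkbiz at 0.89, Hp at 0.78 and Ptgs2 at 0.64, and the penumbra call of Ptgs2 at 0.98.

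Receptors and signaling parts of the same pathways are given next as log2 ratios, and those smaller than the spike-in shift fell below 0 under that scaling. In 7 measured relatives of interleukin-1 and its receptors, 0 were called in any of the 5 comparisons, with medians of 0.07 in the core and 0.04 in the penumbra. By signal the brightest were Il33, an alarmin, at 0.07 ± 0.28 in the core and 0.13 ± 0.21 in the penumbra, plus Il18 at -0.05 ± 0.03 in the core and -0.02 ± 0.00 in the penumbra. Of 8 genes for processing and release of interleukin-1, 0 were called. The brightest were the membrane channel Panx1, at 0.16 ± 0.09 in the core and 0.14 ± 0.13 in the penumbra, plus the inflammasome adaptor Pycard, at -0.02 ± 0.07 in the core and -0.09 ± 0.03 in the penumbra. Of 12 signaling genes downstream of the interleukin-1 receptor 0 were called, with medians of 0.01 and -0.02. Tollip, an adaptor that restrains this receptor, stood at 0.01 ± 0.24 and -0.12 ± 0.16, and the kinase partner Tab1 at -0.03 ± 0.07 and -0.03 ± 0.06.

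The gp130 list held 14 measured genes, with 0 called and a core range of -0.10 to 0.30. Its brightest genes were the kinase Jak1, at -0.05 ± 0.01 in the core and -0.17 ± 0.03 in the penumbra, plus the interleukin-11 receptor Il11ra1, at 0.30 ± 0.01 and 0.26 ± 0.05. In 17 measured genes of the tumor necrosis factor family and its signaling, 0 were called. The adaptor Traf2 stood at -0.05 ± 0.06 and -0.11 ± 0.03, and the receptor Tnfrsf12a at 0.76 ± 0.62 and 0.33 ± 0.45, its array values being 0.32 and 1.19 in the core. Of 7 measured genes of type 2 cytokine and interleukin-10 signaling, 0 were called. The interleukin-10 receptor chains Il10rb and Il10ra stood at 0.12 ± 0.01 and -0.04 ± 0.11 in the core, and at 0.39 ± 0.12 and -0.02 ± 0.10 in the penumbra.

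Among 10 other measured cytokines, 0 were called in ischemic over healthy tissue of either region. Il12a, a subunit of interleukin-12, was called higher in core than in penumbra pieces, by 1.58 ± 0.01 in ischemic tissue and 1.20 ± 0.09 in healthy tissue. Its ratio of ischemic over healthy tissue was 0.39 ± 0.00 in the core and 0.01 ± 0.09 in the penumbra. Il34, a ligand of the colony stimulating factor 1 receptor, stood at -0.08 ± 0.29 and -0.22 ± 0.24.

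**Figure D5:**
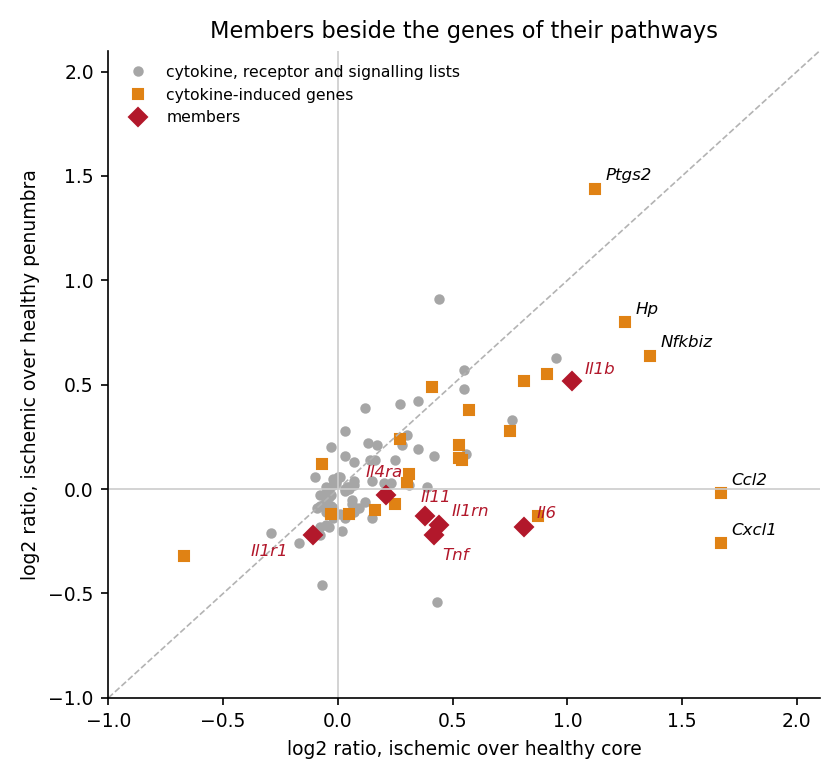
Log2 ratio of ischemic over healthy core (x axis) against ischemic over healthy penumbra (y axis) for the members (diamonds), the cytokine-induced genes (squares) and the other pathway lists (grey), with equal ratios on the dashed line. Il1b lies at 1.02 and 0.52, the other members lie below 0 in the penumbra, and the target genes reach furthest along the core axis, Cxcl1 and Ccl2 at 1.67. Spike-in scaling would move all points by 0.47 to the left and 0.46 down.

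Il1b was the member that met the rule for naming genes of similar pattern. Over the 8 single-channel levels with each dye's mean removed, the most similar of 498 candidate genes were Hp (Pearson r 0.992), Ifitm6 (0.990) and Gem (0.989). The 8 values come from 4 arrays and pair 2 dyes, so they are not independent and no p-value is given. The dye-adjusted log2 levels of Il1b were 0.54 in ischemic core, 0.23 in ischemic penumbra, -0.29 in healthy penumbra and -0.49 in healthy core. Those of Hp were 0.64, 0.39, -0.41 and -0.62 in the same order.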

How the data were processed

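Brain tissue RNA was measured on 4 two-color arrays. The deposited scanner files hold the intensity of each spot per dye. The software was Agilent Feature Extraction 11.0.1.1, per the submitters' processing notes. The deposited table of the series holds log10 ratios, equal to the log10 of processed Cy5 over processed Cy3 signal within 5e-06, so scale and direction are known. Its column medians were -0.0215 and 0.00516 for core and -0.0199 and -0.0115 for penumbra. Here, median spot signals were corrected with normexp (offset 50) and loess in limma 3.58.1 (R 4.3.3), and ratios were turned to ischemic over healthy. Control spots and outlier spots were left out, spots of a probe were averaged, and the brightest probe stood for a gene. A probe counted as well above background where at least 0.5 of its spots did, and it entered a comparison if so on both arrays of a tissue compared. Pieces were compared after Aquantile, within dye. Python 3.11.15, pandas 2.3.3, numpy 2.4.6 and matplotlib 3.10.9 were used. Scripts were tested on simulated data.

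Cy3 median signals were 192 to 225.5 over backgrounds of 64 to 66, and Cy5 median signals 284 to 310 over 70 to 71. The number of arrays limits the precision. There was 1 slide and 1 scan session, so no batch could be tested. Probes were named by RefSeq accession through an annotation of GRCm38.p6, giving 23374 named of 41174. The members and gene lists were chosen with earlier results of these data known. From each list the text names called genes, up to 5 by size in the core, or the brightest up to 2. Alternatives were processed signals, median centring, spike-in scaling, no dim filter, mean over probes, limma over arrays and leaving out arrays.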

Additional observations from a re-analysis of the deposited data

Results flagged for a closer look

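For 5 members every core array lay above 0 and every penumbra array below 0 in ischemic over healthy tissue, against 2.78% of all features. The background filter favored this pattern for Il1rn, so the count is a description only. Penumbra values lay close to 0 for Il4ra, at -0.04 and -0.01, and were -0.07 and -0.19 for Il11. The core minus penumbra difference was 0.99 log2 for Il6, 0.64 for Tnf, 0.61 for Il1rn, 0.51 for Il11 and 0.24 for Il4ra. The size rule for this difference called 0 of the 7 measured members. With 1 replicate per region that rule gives no p-value. The error in limma over arrays is a spread between arrays, shared in part over all genes, and not between animals. Spike-in scaling put the core means of Tnf, Il1rn, Il11 and Il4ra below 0, at -0.05, -0.03, -0.09 and -0.27, and lowered that of Il6 to 0.34. Its shifts of 0.47 in the core and 0.46 in the penumbra nearly cancel in the difference between regions. That difference was then 0.98 for Il6, 0.63 for Tnf, 0.60 for Il1rn, 0.50 for Il11 and 0.22 for Il4ra.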

How the results depend on the processing

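Of 273 member values under the alternatives, 265 kept the sign of the reported value. Many of these could not turn. Both limma settings and the missing dim filter return the main value by construction, and the mean over probes changed only Il1rn. Spike-in scaling hardly moves the difference between regions, because its shifts of 0.47 in the core and 0.46 in the penumbra nearly cancel. The count is therefore no measure of robustness. Of the 8 that turned, 4 were the core ratios of Il1rn, Tnf, Il11 and Il4ra under spike-in scaling. The others were 3 values of Il1r1 (0.05, -0.04 and -0.07) and 1 of Il11 (-0.01) with arrays left out. The number of members called by size moved with the signals used. Agilent's processed signals gave 4 calls in ischemic over healthy core, against 1, and 1 in the penumbra, against 0. They gave 3 for the difference between regions, 3 between healthy pieces and 2 between ischemic pieces, against 0 in each. These signals carry no added offset. Spike-in scaling gave 0 calls in the core. Leaving out single arrays gave 0 to 1 calls for the difference between regions, the call being Il6 without core replicate 2 or penumbra replicate 4, and 1 to 1 in the core and 0 to 0 in the penumbra. Median centring, no filter on dim probes, the mean over probes and limma over arrays with at least 1 log2 and an adjusted p under 0.05 left each count they apply to as it was, although the mean over both probes of Il1rn moved its difference between regions to 0.35 and its healthy piece difference to -0.28. No paired analysis was possible because core arrays are numbered 1 and 2 and penumbra arrays 3 and 4, so the regions share no replicate number. Signal over background limits Il1a in all tissues, Il1rn in healthy core and ischemic penumbra, and Tnf and Il6 in healthy core.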

Other observations

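Several genes outside the naming rule were chosen after their values were seen. Csf3, which encodes the granulocyte growth factor, had a log2 ratio of 0.43 ± 0.11 in the core and -0.54 ± 0.08 in the penumbra, a difference of 0.97. On processed signals it was called higher in the core at 1.42 and lower in the penumbra at -1.45. Il1r2, the decoy receptor of interleukin-1, stood at 0.95 ± 0.20 in the core and 0.63 ± 0.09 in the penumbra. Processed signals gave it 1.48 in the core, a call. Cxcl2, a neutrophil chemokine, stood at 0.87 ± 0.26 in the core and -0.13 ± 0.10 in the penumbra, a called difference of 1.00. Its processed signals gave 2.91 in the core, which was called, and a difference of 3.17. Cxcl2 was not well above background in healthy core, so all these sizes, the called difference included, are measured values only. Peli1, a ubiquitin ligase of interleukin-1 receptor signaling, stood at 0.44 ± 0.15 in the core and 0.91 ± 0.03 in the penumbra. Lrg1, an acute phase gene, was called higher in core than in penumbra pieces, by 1.07 ± 0.16 in ischemic tissue and 1.42 ± 0.18 in healthy tissue, with ischemic over healthy ratios of -0.67 ± 0.08 in the core and -0.32 ± 0.07 in the penumbra.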
